A study of Homo sapiens with 30 samples.

Results

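The HOXD cluster was described here through its 9 genes, HOXD1, HOXD3, HOXD4, HOXD8, HOXD9, HOXD10, HOXD11, HOXD12 and HOXD13, out of 18685 protein-coding genes that had a peak on day 4. Every peak of 10 open chromatin lists that overlapped the GRCh38 body of a member, extended by 3 kb on each side, was taken. The 9 windows overlap and join into 3 blocks of 51209, 27549 and 8240 bp on the long arm of chromosome 2, or 86998 bp in all. Peaks that overlapped by at least 1 bp in different lists were merged, which gave 41 regions in the windows out of 493444 across the genome. A list with at least 1 peak in a region counts as open there.

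HOX genes encode homeodomain transcription factors that give cells their position along the head to tail axis. Within a cluster the order of the genes follows the order in which they are switched on: the 3' members come on early and reach far forward into the hindbrain, while the 5' members come on late, in the lower spinal cord, limb buds and genital region. Retinoic acid and FGF signals from the trunk open the clusters from the 3' end, and forebrain and midbrain cells normally keep them silent.

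The study asked how 2 day 2 neural ectoderm populations contribute to brain regions. OmniATAC-seq, in which Tn5 transposase tags accessible DNA, was run on 50000 cells per library of H1, a wild-type human embryonic stem cell line, with 3 biological replicates in each of 10 groups. Undifferentiated cells (hPSC) were taken on day 0. Definitive ectoderm (DE, day 1) had received A8301 at 1 µM, a TGF-beta receptor inhibitor, trametinib at 250 nM, a MEK inhibitor, C59 at 1 µM, an inhibitor of WNT secretion, and LDN193189 at 100 nM, a BMP receptor inhibitor. Anterior neural ectoderm (aNE, day 2) was made from DE with A8301, LDN193189 and C59. Posterior neural ectoderm (pNE, day 2) was made from DE with A8301, LDN193189, the retinoic acid receptor agonist TTNPB at 50 nM, FGF2 at 20 ng/mL and the tankyrase inhibitor XAV939 at 1 µM. Thiazovivin was present in both day 2 media, and both groups carry the preceding DE treatment. On day 4 the labels give 3 groups of each origin, moved from day 2 into telencephalon (T), midbrain (M) or hindbrain (H) medium: aNE_T, aNE_M and aNE_H, and pNE_T, pNE_M and pNE_H. The telencephalon medium held at least XAV939, LDN193189 and FGF2, and the contents of the other media are not given in the sources used here. Both day 2 groups, aNE and pNE, were plated at 37500 cells/cm2. Cultures bound for day 4 were plated at 75000 cells/cm2 for aNE and at 150000 cells/cm2 for pNE. On day 4 origin and density therefore cannot be told apart, and from day 2 to day 4 neither can time and density. All cells are of 1 line.

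Each group has 1 deposited list, made after its replicates were combined, so the values carry no replicate error and read depth is unknown. The libraries are bulk, so a site open in more cells and a site more open in each cell cannot be told apart. RNA was not analysed here, and a peak is not a measure of expression. List length differs: on chromosomes 1 to 22, X and Y the lists held between 167792 peaks (aNE) and 313095 (pNE_H), and peaks covered between 75.5 Mb (aNE) and 129 Mb (pNE_H). Results on bases are therefore given also for the 167792 widest peaks of every list (lists of one size) and per Mb of peaks in a list. As a check of the labels, promoters of hindbrain genes were open at 3 of 4 in pNE and in each pNE-derived list, at 2 of 4 in hPSC, DE and aNE, and at 1 of 4 in each aNE-derived list. Promoters were available for 4 of 6 hindbrain, 4 of 6 pluripotency, 3 of 5 forebrain, 4 of 5 midbrain and 3 of 4 other genes listed. Bases in peaks at all 6 hindbrain genes overlapped between origins on day 4. They were 13311 (aNE_T), 11664 (aNE_M) and 11912 (aNE_H) against 13529 (pNE_T), 11974 (pNE_M) and 15974 (pNE_H). The 4 pluripotency promoters were all open in hPSC, DE, aNE, pNE and aNE_T, at 3 in aNE_M, aNE_H and pNE_H and at 2 in pNE_T and pNE_M. Forebrain promoters were open at 3 of 3 and midbrain promoters at 3 of 4 in all 10 lists, so they did not separate the labelled populations. Of 5 neural ectoderm promoters 4 or 5 were open in every list, hPSC included. Promoters of other cell types (mesoderm, endoderm and surface ectoderm genes) were open at 1 or 2 of 3.

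On day 4 the HOXD windows held more bases in peaks in every pNE-derived list than in any aNE-derived list. Earlier lists held 14002 bp (hPSC), 13649 bp (DE), 11974 bp (aNE) and 12228 bp (pNE). Descendants of aNE held 12656 bp with telencephalon, 12454 bp with midbrain and 10847 bp with hindbrain medium. Descendants of pNE held 14361, 15290 and 17755 bp with the same media. The aNE_H list was the lowest and pNE_H the highest of all 10, although both came from the hindbrain medium, and the 2 sets of 3 did not overlap. As a share of the windows this was 12.5% in aNE_H and 20.4% in pNE_H.

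The mean over media was 11986 ± 991 bp (SD over 3 media) for aNE-derived and 15802 ± 1754 bp for pNE-derived lists, a difference of 3816 bp or 1.32-fold. The exact two-sided permutation test over the 20 splits of the 6 lists gave p = 0.1, the smallest that 3 lists against 3 allow, so the design cannot pass 0.05. The 3 media of an origin stand in for replicates here, so neither the SD nor the p-value measures the spread between replicates. Within media the pNE-derived list was higher by 1705 bp (T), 2836 bp (M) and 6908 bp (H), and exact permutation of the 8 sign patterns of these pairs gave p = 0.25, again the smallest possible. With lists of one size the means were 11326 bp and 14557 bp, 1.29-fold apart, again without overlap (exact permutation p = 0.1). Per Mb of peaks the means were 137 and 159.9 bp, 1.17-fold apart, and the ranges overlapped because pNE_H fell to 137 (exact permutation p = 0.2). The plot of totals on these 3 scales shows where the longest list changes place.

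**Figure D1:**
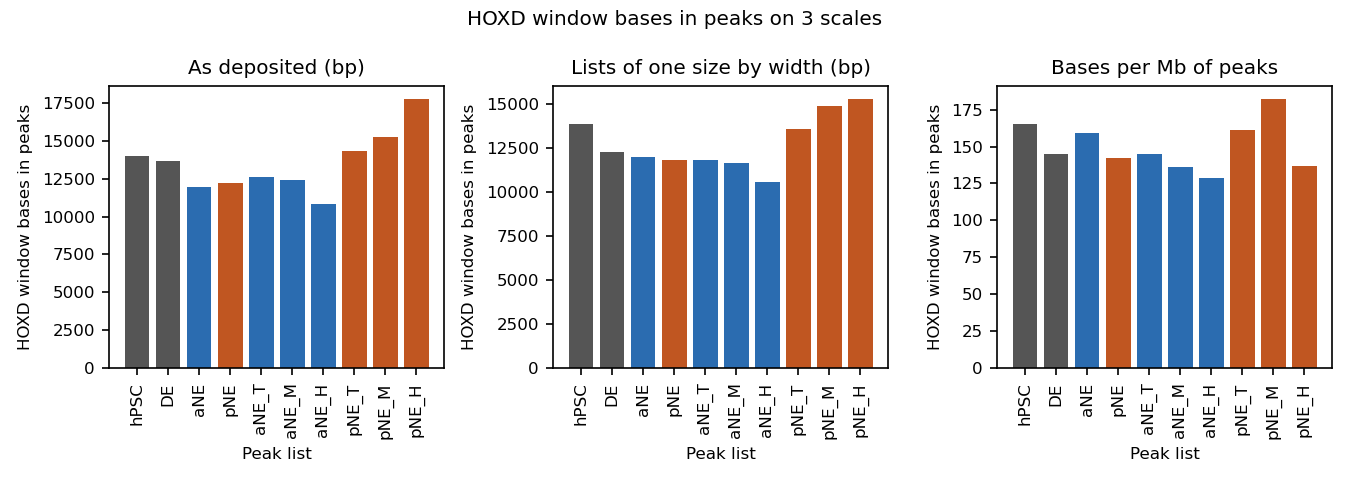
Bars give the bases of the HOXD windows inside peaks for each of the 10 lists, as deposited (bp), with every list held to its 167792 widest peaks (bp), and in bp per Mb of peaks in the list; blue bars are aNE and its descendants, orange bars pNE and its descendants, grey bars hPSC and DE, and there are no error bars because each population has 1 list. The pNE-derived bars stand above the aNE-derived bars in the left and middle panels, and in the right panel pNE_H, at 137, falls among the aNE-derived lists.

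The number of peaks moved less evenly than the bases. Peaks in the windows numbered 24 (hPSC), 29 (DE), 24 (aNE) and 24 (pNE). The day 4 lists had 23 (aNE_T), 29 (aNE_M) and 24 (aNE_H) against 29 (pNE_T), 27 (pNE_M) and 36 (pNE_H). The ranges overlapped, since aNE_M had as many peaks as pNE_T. Of the 41 regions 22, 23 and 19 were open in aNE_T, aNE_M and aNE_H and 26, 26 and 34 in pNE_T, pNE_M and pNE_H.

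The cluster was not uniform in this respect, and the map of peaks along the cluster shows a fixed frame with changes laid over it. In all 10 lists 11 regions (26.8%) were open, against 16.5% of all regions of the genome. These lay at or next to the start sites of HOXD13, HOXD11, HOXD10, HOXD8 and HOXD1, in the bodies of HOXD13, HOXD9 and HOXD3, past HOXD3 in HAGLR, and between HOXD13 and HOXD12. Another 8 regions (19.5%) were open in 1 list only, against 33.5% of all regions: 3 in hPSC, 1 in pNE_T, 2 in pNE_M and 2 in pNE_H. Of the 41 regions 13 (31.7%) were open on day 4 and at no earlier time, against 35.0% of all regions, and 4 (9.76%) were open earlier but in no day 4 list, against 15.8%.

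**Figure D2:**
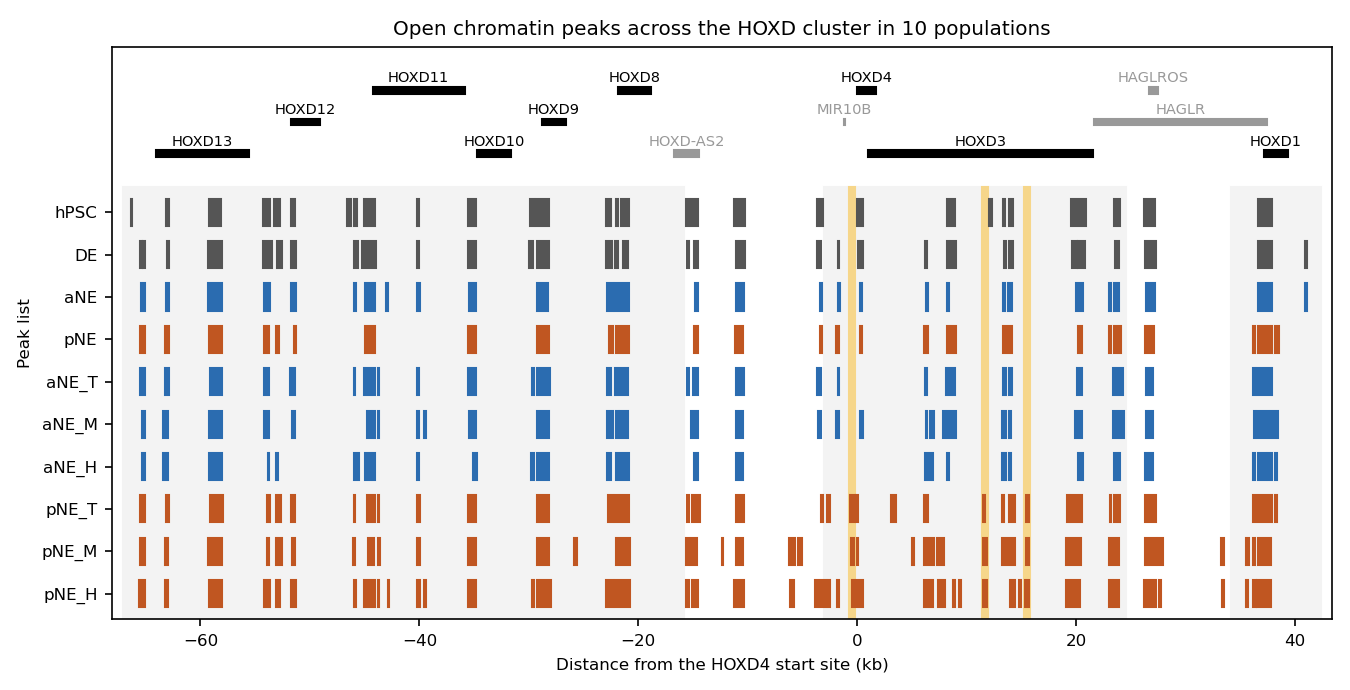
Peaks of each list (rows) across the HOXD cluster, plotted as distance from the HOXD4 start site in kb; black bars are the 9 member genes, grey bars noncoding neighbours, the light grey background the 3 window blocks, and the yellow bands the 3 regions open in all pNE-derived and no aNE-derived list. Of the 41 regions 11 run through all 10 lists as columns of peaks, and the yellow bands all lie around HOXD4 and within HOXD3.

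Complete separation of the day 4 lists by origin was found at HOXD4 and HOXD3. Of the 41 regions 3 (7.32%) were open in all 3 pNE-derived lists and in no aNE-derived list, against 2.33% of all regions, and 0 showed the reverse pattern, against 0.633%. None of the 3 was open in hPSC, DE, aNE or pNE. The first, chr2:176150891-176151298 (408 bp), lies between genes, with its midpoint at -455 bp from the HOXD4 start site. Its peaks were 408 bp wide in pNE_T, 235 bp in pNE_M and 220 bp in pNE_H. The next, chr2:176163049-176163410 (362 bp), lies in the HOXD3 body 5.92 kb after the HOXD3 start site at position 176157307. Peaks of 189 bp in pNE_T, 361 bp in pNE_M and 354 bp in pNE_H covered it. The last, chr2:176166892-176167259 (368 bp), also lies in the HOXD3 body, 9.77 kb after that start site. It held peaks of 327 bp in pNE_T, 219 bp in pNE_M and 362 bp in pNE_H.

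These peaks were narrower than the other HOXD peaks but not than the typical peak of their lists. Over whole lists the median width was 287 bp in pNE_T, 267 bp in pNE_M and 284 bp in pNE_H. The 9 peaks in the 3 regions were 189 to 408 bp wide with a median of 327 bp, and the other 85 HOXD peaks of the pNE-derived lists were 116 to 1746 bp wide with a median of 393 bp. In lists of one size both regions within HOXD3 were still open in all 3 pNE-derived lists, and the region before HOXD4 was open in pNE_T and pNE_M. There 2 of 37 regions were open in all pNE-derived lists only, against 2.09% of all regions. The reverse pattern was found at 1 of 37, which begins at 176159676 in the HOXD3 body, against 1.41%. None of the 3 regions above kept the pNE-derived pattern when only the widest 50% of each list was used.

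With a looser criterion, at least 1 pNE-derived and no aNE-derived list, 11 regions (26.8%) qualified against 29.9% of all regions, so the HOXD share was near the background. In the opposite direction 0 of 41 qualified against 10.7% of all regions. Of the 11 regions 7 were in the HOXD3 window and 3 in the HOXD4 window, whose windows overlap, and HOXD11, HOXD9 and HOXD1 each had 1. HOXD13, HOXD12, HOXD10 and HOXD8 had 0.

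HOXD3, a 3' member that acts in patterning of the hindbrain and the base of the skull, had the largest difference in bases of the 9 genes and also the longest window. Its body spans chr2:176152529-176173098 and its window 26570 bp with 16 regions. Bases in peaks were 3981 (hPSC), 3230 (DE), 2598 (aNE) and 3371 (pNE). The day 4 values were 3196, 3828 and 2485 for aNE_T, aNE_M and aNE_H, and 4386 in pNE_T, 6198 in pNE_M and 6120 in pNE_H. All pNE-derived lists exceeded all aNE-derived lists, with means of 5568 and 3169.7 bp. HOXD3 was the only member with this order on every scale: with lists of one size the ranges were 3986 to 6076 against 2485 to 3387 bp, and per Mb of peaks they were 47.4 to 73.6 against 29.6 to 41.9 bp.

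Peak numbers in the HOXD3 window were 7 in hPSC, 11 in DE, 9 in aNE and 9 in pNE, then 7, 11 and 6 in aNE_T, aNE_M and aNE_H and 12, 10 and 14 in pNE_T, pNE_M and pNE_H. Unlike the bases, the numbers overlapped between origins, since aNE_M had more peaks than pNE_M. Of the 16 regions of the window 8 were open on day 4 only. Besides the pair in the gene described above these were chr2:176154643-176155116 in pNE_T only, chr2:176156569-176156742 in pNE_M only, and chr2:176160841-176161033 and chr2:176166342-176166517 in pNE_H only. A further one, chr2:176158850-176159543, was open in aNE_M, pNE_M and pNE_H, and so followed neither origin nor medium alone. The remaining one is the region before HOXD4, which the windows of both genes hold.

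A few HOXD3 regions ran the other way or did not depend on origin. The region chr2:176159676-176160532, 2.80 kb after the start site, was open in every list but pNE_T and pNE_M. The region chr2:176157629-176158575, just after the start site, was open in every list but hPSC. The region chr2:176163559-176163872 was open in hPSC only and lies next to one that only the pNE-derived lists held. Regions open in all 10 lists were chr2:176164728-176165951, chr2:176170600-176172431 and, past the gene in the noncoding HAGLR, chr2:176174533-176175932.

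HOXD4, which lies next to HOXD3 on its 5' side, with a hindbrain expression boundary and a known retinoic acid response, had the smallest share of its window in peaks of the 9 genes in every list other than pNE_T. Its body is chr2:176151550-176153226. The hPSC list had 572 bp, DE 496 bp, aNE 369 bp and pNE 445 bp. In aNE_T there were 142 bp, in aNE_M 530 bp and in aNE_H 0 bp, while pNE_T had 1253 bp, pNE_M 357 bp and pNE_H 1228 bp. The means, 224 and 946 bp, differ by 722 bp, but aNE_M was above pNE_M, so the ranges overlapped. Peak numbers were 1, 3, 2 and 2 in hPSC, DE, aNE and pNE, 1, 2 and 0 in aNE_T, aNE_M and aNE_H, and 4, 2 and 5 in pNE_T, pNE_M and pNE_H.

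The position of the peak at the HOXD4 start site moved between populations. The merged region there, chr2:176151458-176152090, was open in every list but aNE_T and aNE_H. In hPSC a single peak ran from 176151519 to 176152090, across the start site at 176151550, and in DE a first peak ran from 176151570 to 176151681 and another from 176151865 to 176152083, both after it. In aNE it ran from 176151814 to 176151986, in pNE from 176151813 to 176151956 and in aNE_M from 176151813 to 176152052, all inside the gene and clear of the start site. In pNE_T it ran from 176151459 to 176151578, in pNE_M from 176151482 to 176151603 and in pNE_H from 176151458 to 176152078, so the start site was again inside a peak. The pNE_T and pNE_M peaks there were only 120 and 122 bp wide and are not among the peaks of lists of one size, where pNE_H and hPSC alone had the start site in a peak. A count of open regions alone does not show this, because all these peaks fall into 1 merged region.

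**Figure D3:**
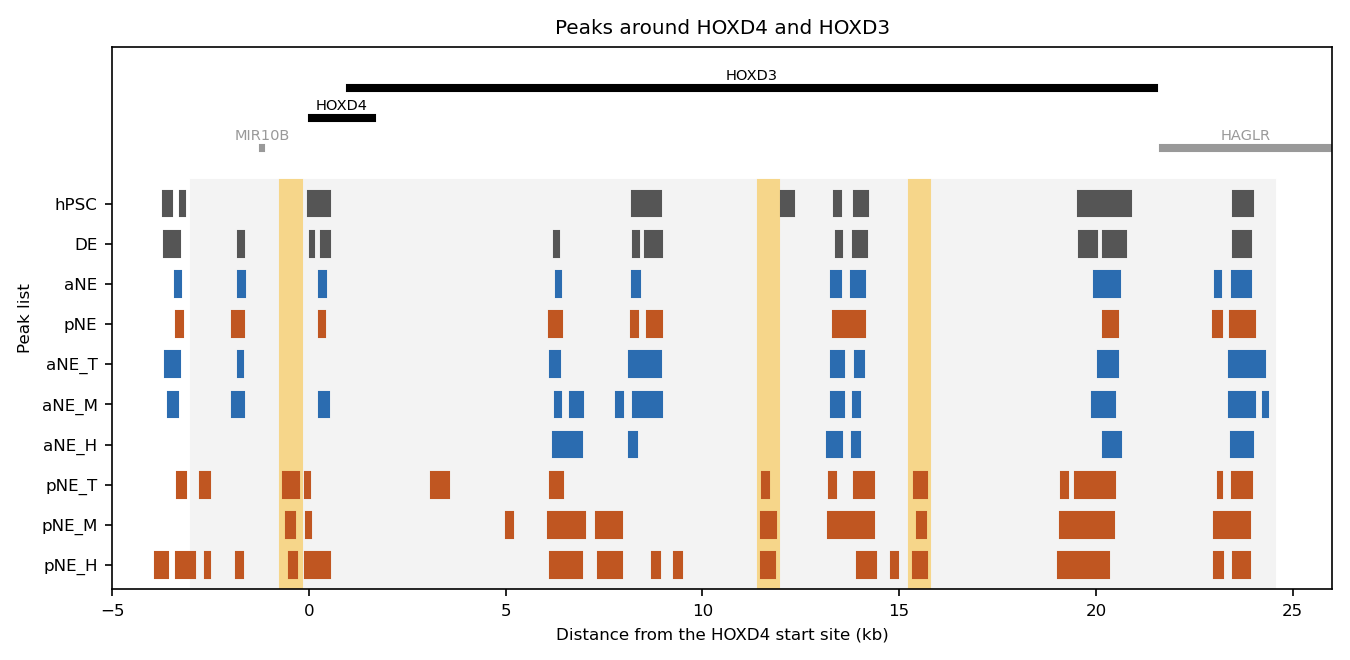
Peaks of each list (rows) around HOXD4 and HOXD3 as distance from the HOXD4 start site in kb, with gene bodies above, the window block in light grey and the 3 regions open in all pNE-derived and no aNE-derived list in yellow. At 0 kb a peak touches the start site in hPSC and the 3 pNE-derived lists, while the peaks of DE, aNE, pNE and aNE_M lie to its right and aNE_T and aNE_H have none.

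The same shift was read from the promoter window, 250 bases before to 50 after the start site, which RefSeq (GRCh38.p14) gives for 8 of the 9 members (not HOXD9). The HOXD4 window had 81 bases in peaks in hPSC, 30 in DE, 0 in aNE, pNE, aNE_T, aNE_M and aNE_H, 120 in pNE_T, 118 in pNE_M and 142 in pNE_H. In the lists as deposited the 3 pNE-derived lists were thus the highest of the 10 and the 3 aNE-derived lists were at 0. With lists of one size this order was lost: pNE_H kept 142 bases and hPSC 81, and the other 8 lists, pNE_T and pNE_M included, had 0. The sequence is shown because it is the member promoter whose coverage separated by origin in the deposited lists, with the 142 bases inside the pNE_H peak in capitals (chr2:176151300-176151599, plus strand, 5' to 3'):
HOXD4: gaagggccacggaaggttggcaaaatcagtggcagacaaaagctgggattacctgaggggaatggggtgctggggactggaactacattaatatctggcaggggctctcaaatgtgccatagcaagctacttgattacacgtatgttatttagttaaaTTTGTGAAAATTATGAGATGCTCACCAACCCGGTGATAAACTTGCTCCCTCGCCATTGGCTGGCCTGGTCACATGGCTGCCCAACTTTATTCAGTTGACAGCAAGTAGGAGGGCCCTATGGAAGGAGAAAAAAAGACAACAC
The capitals hold an inverted CCAAT box, which began at position -38 from the start site, and TGACAG, a MEIS-type motif, 3 bases after it. CCAAT was found on either strand in 36.4% of the 15843 protein-coding promoters of this table and in 6 of 8 HOXD promoters. TGACAG was found in 14.7% of them and in HOXD4 alone of the 8.

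HOXD3 differed from its neighbour at the promoter. The window at its start site had 0 bases in peaks in all 10 lists, although the gene differed by origin elsewhere. The annotated gene body begins further 5', at 176152529. Its sequence is shown as the member promoter that no list covered, so all letters are lower case (chr2:176157057-176157356, plus strand):
HOXD3: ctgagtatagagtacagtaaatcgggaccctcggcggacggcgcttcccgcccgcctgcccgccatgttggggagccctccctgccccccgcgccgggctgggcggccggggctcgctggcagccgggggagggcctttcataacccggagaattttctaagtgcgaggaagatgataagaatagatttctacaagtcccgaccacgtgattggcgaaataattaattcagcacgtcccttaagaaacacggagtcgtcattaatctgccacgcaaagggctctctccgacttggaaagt
It holds CACGTG, an E-box, at position -47, followed by an inverted CCAAT box at -41. CACGTG was in 5 of 8 HOXD promoters (HOXD13, HOXD11, HOXD10, HOXD3 and HOXD1) against 8.88% of all promoters. Retinoic acid half-sites (AGGTCA or AGTTCA, both strands) were in HOXD13 and HOXD8, 2 of 8, against 19.0% of promoters. Pairs of half-sites with 5 bases between them (DR5) were in 0 of 8 and in 0.0189% of promoters, and pairs with 2 bases between them (DR2) in 0 of all. A match or its lack describes the letters of these windows only.

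HOXD1, the most 3' member, which is expressed early and in sensory neurons in mouse, showed a promoter open throughout. Its body is chr2:176188668-176190907. Bases in peaks were 1325 in hPSC, 1483 in DE, 1451 in aNE and 1800 in pNE, then 1448, 1993 and 1477 in aNE_T, aNE_M and aNE_H and 1902, 1693 and 1664 in pNE_T, pNE_M and pNE_H. The ranges of the day 4 lists overlapped, with aNE_M the highest of all lists. Peak numbers were 1, 2, 2, 3, 2, 2, 4, 2, 3 and 3 in the same order. The region chr2:176187657-176190046 over its start site was open in all 10 lists, and chr2:176187048-176187304, at -1.49 kb from that site, in pNE_M and pNE_H only.

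HOXD8, a trunk gene, HOXD9 and HOXD10, which act in lumbar spinal cord and hindlimb, had overlapping day 4 values in the descendants of aNE and pNE. For HOXD8 (chr2:176129705-176132695) bases in peaks were 1463 in hPSC, 1328 in DE, 1803 in aNE, 1625 in pNE, 1621, 1451 and 1471 in aNE_T, aNE_M and aNE_H, and 1719, 1324 and 2064 in pNE_T, pNE_M and pNE_H. For HOXD9 (chr2:176122719-176124937) they were 1505, 1475, 1044 and 1083 in hPSC, DE, aNE and pNE, 1312, 1075 and 1282 in the aNE-derived lists and 1084, 1239 and 1424 in the pNE-derived lists, in the order T, M, H. For HOXD10 (chr2:176116778-176119937) the same orders gave 1802, 1822, 1301 and 1173, then 1501, 1133 and 1278, then 1337, 1361 and 1603. HOXD9 and HOXD10 had their highest values in hPSC and DE, before neural induction. Peaks numbered 1 to 3 in HOXD8, 1 to 2 in HOXD9 and 2 to 3 in HOXD10.

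HOXD11, a 5' gene of forearm and kidney development, held 3 of the 4 regions open in aNE and not pNE on day 2. Its body is chr2:176107280-176115679. Bases in peaks were 2594 in hPSC, 2589 in DE, 2172 in aNE and 1397 in pNE, which was the lowest of the 10 lists as deposited. With lists of one size aNE_M, at 1222 bp, was below pNE, at 1397 bp. Later values were 2130, 1488 and 1924 in aNE_T, aNE_M and aNE_H and 1986, 1819 and 2710 in pNE_T, pNE_M and pNE_H, and the ranges overlapped. Peaks numbered 5, 4, 5 and 3 in hPSC, DE, aNE and pNE and 5 to 7 in the day 4 lists.

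At the HOXD11 promoter the full 300 bases lay in peaks in every list but 2, aNE_M with 148 and aNE_H with 145. The uncovered stretch ran between peaks that ended at 176107149 and began at 176107302 in aNE_M, and between 176107125 and 176107281 in aNE_H. The sequence is shown for this gap, with the 145 bases inside the peaks of aNE_H in capitals (chr2:176107030-176107329, plus strand):
HOXD11: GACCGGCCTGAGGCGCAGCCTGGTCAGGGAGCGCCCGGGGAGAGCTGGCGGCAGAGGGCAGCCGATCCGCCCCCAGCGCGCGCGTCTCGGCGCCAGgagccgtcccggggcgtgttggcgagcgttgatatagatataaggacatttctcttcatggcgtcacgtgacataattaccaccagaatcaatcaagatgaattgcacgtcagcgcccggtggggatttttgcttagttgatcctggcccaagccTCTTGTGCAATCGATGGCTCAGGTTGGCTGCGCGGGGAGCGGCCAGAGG
The lower case stretch holds CACGTG at position -90 and, at -67, an inverted match to TGATTNAT, a PBX-HOX-type motif found in 2.07% of promoters and in no other HOXD promoter. The other 8 lists, without aNE_M and aNE_H, had both motifs inside a peak.

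HOXD12 and HOXD13, the most 5' genes, known for limb and digit patterning, had non-overlapping day 4 ranges with smaller differences. For HOXD12 (chr2:176099795-176102489) bases in peaks were 1956 in hPSC, 1745 in DE, 1044 in aNE and 920 in pNE, then 993, 656 and 345 in aNE_T, aNE_M and aNE_H, and 1113, 1085 and 1465 in pNE_T, pNE_M and pNE_H. The day 4 means were 665 and 1221 bp, and the highest values were those of hPSC and DE. Peak numbers were 4, 3, 2, 3, 2, 2, 2, 3, 3 and 3. The region over its start site, chr2:176099737-176100323, was closed in aNE_H only.

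The peaks at HOXD12 lay mostly after the start site, and its promoter window had 108 bases in peaks in aNE_T, 50 in pNE_H, 43 in aNE, 31 in pNE_T, 26 in hPSC, 21 in DE and 0 in pNE, aNE_M, aNE_H and pNE_M. The sequence is shown for this edge, with the 50 bases inside the pNE_H peak in capitals, all at the 3' end (chr2:176099545-176099844, plus strand):
HOXD12: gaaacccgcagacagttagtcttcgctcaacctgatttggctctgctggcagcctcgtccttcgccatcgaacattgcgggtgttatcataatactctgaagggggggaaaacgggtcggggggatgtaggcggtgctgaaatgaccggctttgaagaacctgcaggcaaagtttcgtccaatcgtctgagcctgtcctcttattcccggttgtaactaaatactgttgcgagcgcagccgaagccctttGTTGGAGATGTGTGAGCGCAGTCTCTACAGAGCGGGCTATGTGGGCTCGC
Its CCAAT box at position -72 was outside the pNE_H peak.

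HOXD13 (chr2:176087487-176095944) had 2784 bases in peaks in hPSC, 3008 in DE, 2429 in aNE and 2818 in pNE. The day 4 lists had 2455, 2395 and 2208 in aNE_T, aNE_M and aNE_H and 2656, 2675 and 3013 in pNE_T, pNE_M and pNE_H. The means were 2353 and 2781 bp. The number of peaks was 4 to 6 in every list, and all 300 promoter bases lay in peaks in every list, as at HOXD1. The plot of promoter coverage sets these beside the promoters that changed.

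**Figure D4:**
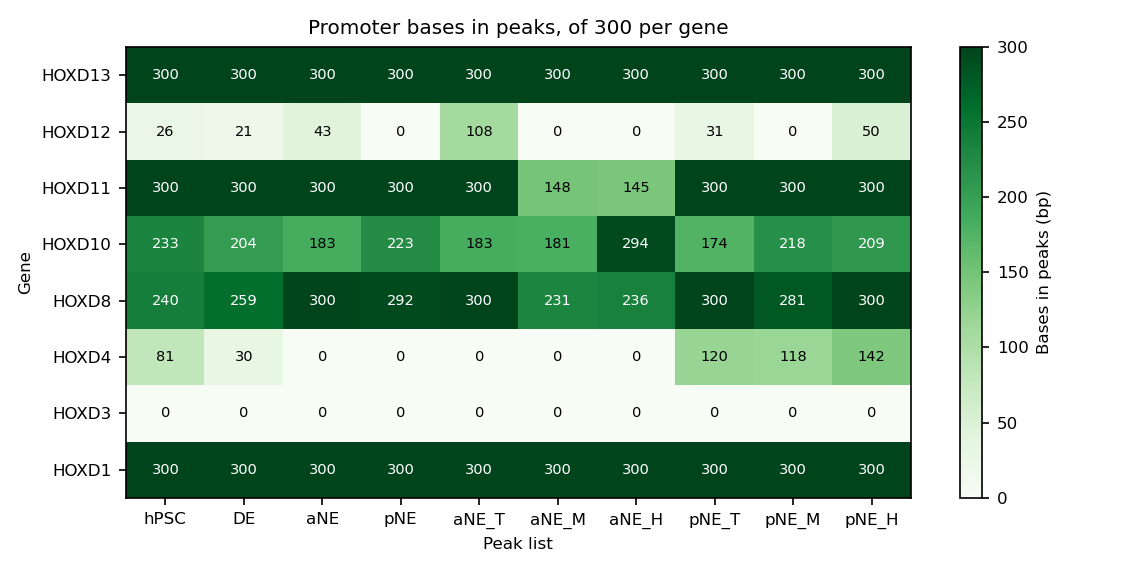
Each cell gives the bases in peaks, of 300 per gene, in the promoter window (250 bases before to 50 after the start site) of 8 HOXD genes (rows) in the 10 lists (columns); darker green is more bases. HOXD13 and HOXD1 are at 300 in all lists, HOXD3 is at 0 in all, and HOXD4 is at 0 from aNE to aNE_H and at 118 to 142 in the pNE-derived lists.

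Across genes, 3 of 9 members (HOXD13, HOXD12 and HOXD3) had all pNE-derived lists above all aNE-derived lists in bases, against 7.57% of protein-coding genes, and 0 of 9 the reverse, against 3.21%. Their windows overlap between HOXD13 and HOXD12, so they are not independent. With lists of one size the same 3 genes were found, against 6.64% of genes. Per Mb of peaks HOXD3 alone was left, against 4.88% of genes, and the reverse order, still 0 of 9, was found in 19.4% of genes. As a mean share of the gene's window, which allows for window length, the pNE-derived lists were above the aNE-derived lists by 9.4 points at HOXD4 (12.3% against 2.92%), 9.03 points at HOXD3 (21.0% against 11.9%) and 6.4 points at HOXD12. For the other 6 genes the difference was between 0.316 points at HOXD9 and 2.96 points at HOXD13. These shares are for the lists as deposited, where the HOXD4 ranges overlapped. With lists of one size the mean difference fell from 722 to 521 bp at HOXD4 and from 2398 to 2034 bp at HOXD3. At HOXD12 it rose from 556 to 604 bp. Shares of the window were not computed on that scale. With no flank the genes with all pNE-derived lists above all aNE-derived lists were HOXD8 and HOXD3. With flanks of 10 kb they were HOXD3 and HOXD1. HOXD13 and HOXD12 thus had this order with flanks of 3 kb and not with the other 2 flanks. Leaving out aNE_M raised the count of genes to 5 by adding HOXD4 and HOXD1, and leaving out pNE_M raised it to 5 by adding HOXD8 and HOXD4. Complete separation is easier to reach with a list left out. The share of all genes was not computed for lists left out or for other flanks. The heat map of the 9 genes shows where these differences lie.

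**Figure D5:**
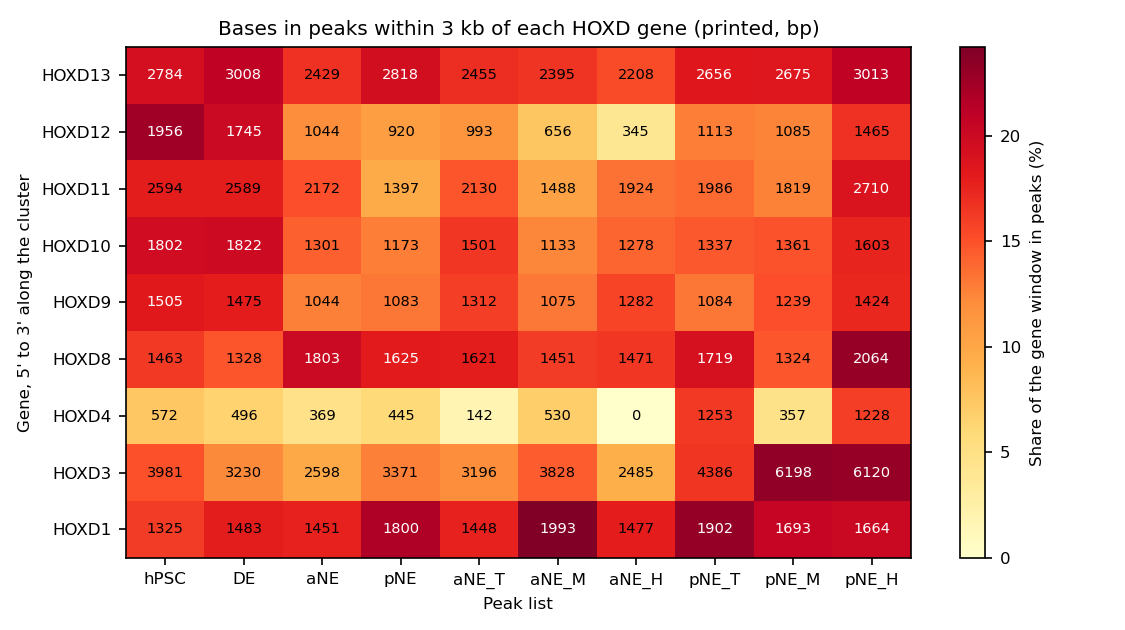
Bases in peaks within 3 kb of each HOXD gene (printed, bp) for the 10 lists, with colour giving the share of the gene's window in peaks (%); rows run from the 5' to the 3' end of the cluster. HOXD3 is darkest in pNE_M (6198) and pNE_H (6120), and HOXD4 runs from 0 in aNE_H to 1253 in pNE_T.

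On day 2, directly after the TTNPB and FGF2 treatment, the aNE and pNE totals were close. The windows held 11974 bp in aNE and 12228 bp in pNE, a difference of 254 bp that turned to -151 bp with lists of one size. By gene, pNE had more bases at HOXD3 (3371 against 2598), HOXD13 (2818 against 2429) and HOXD1 (1800 against 1451), and fewer at HOXD11 (1397 against 2172). With 1 list each, these differences have no replicate check. Of the 41 regions 4 (9.76%) were open in aNE and not pNE, against 5.54% of all regions, and 1 (2.44%) in pNE and not aNE, against 12.7%.

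The 4 regions open in aNE and not pNE were at HOXD11 and HOXD1. The region chr2:176105525-176106060, at -1.49 kb from the HOXD11 start site, had an aNE peak of 179 bp and was open in all lists but pNE and aNE_M. In the HOXD11 body, chr2:176108536-176108811 had an aNE peak of 188 bp and was otherwise open in pNE_H alone. Also in that gene, chr2:176111332-176111588, with an aNE peak of 227 bp, was closed in pNE alone. The region chr2:176192465-176192666, 3.90 kb after the HOXD1 start site, was open in DE and, with a peak of 184 bp, in aNE. In the lists as deposited all but that at HOXD1 were open in at least 1 pNE-derived list on day 4. With lists of one size only chr2:176111332-176111588 was, in pNE_T and pNE_M. The only region open in pNE and not aNE, chr2:176098226-176098995, lies at -1.18 kb from the HOXD12 start site and was also open in hPSC, DE, aNE_H and all pNE-derived lists.

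Near HOXD3 and HOXD4 themselves, 0 regions were open in aNE and not pNE, whether the flank was 3 kb or 10 kb, in the lists as deposited. With lists of one size the region at the HOXD4 start site, which lies in both windows, was open in aNE and not pNE. With flanks of 50 kb each gene had 4 such regions, of 45 for HOXD3 and 44 for HOXD4, and they are the 4 above at HOXD11 and HOXD1. In the lists as deposited the count of such regions in wide windows around HOXD3 and HOXD4 thus came from other genes of the cluster.

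Over time, in the lists as deposited, no HOXD region opened on the step to pNE. On the steps from pNE to its descendants 8 to 14 opened. Between hPSC and DE, 4 regions opened and 3 closed. From DE to aNE 1 of the 17 closed regions opened (5.88%), against 6.4% of all regions closed in DE. From DE to pNE 0 of 17 opened, against 18.6%. This depended on list length. With lists of one size chr2:176085921-176086493, chr2:176149604-176149938 and chr2:176157629-176158575 were closed in DE and open in both pNE and aNE. The shares given for these steps are for the lists as deposited and were not computed with lists of one size. From pNE, 8 of 21 closed regions opened in pNE_T (38.1%, against 22.6% of all regions), 10 in pNE_M (47.6%, against 21.1%) and 14 in pNE_H (66.7%, against 44.9%). From aNE, 2 of 18 opened in aNE_T (11.1%, against 16.1%), 3 in aNE_M (16.7%, against 22.9%) and 2 in aNE_H (11.1%, against 21.8%). For opening, the HOXD shares were thus above the genome-wide share in each step from pNE and below it in each step from aNE. In the steps from DE, aNE and pNE the share that closed was lower at HOXD than over all regions, except from aNE to aNE_H. From DE, 2 of 24 open regions closed in aNE (8.33%, against 39.1%) and 4 in pNE (16.7%, against 37.6%). From pNE, 2 of 20 closed in pNE_T (10.0%, against 29.5%), 4 in pNE_M (20.0%, against 28.1%) and 0 in pNE_H (against 14.1%). From aNE, 3 of 23 closed in aNE_T (against 15.3%), 3 in aNE_M (against 18.4%) and 6 in aNE_H (26.1%, against 24.8%). The steps of an origin share their day 2 list, so these are not 3 independent comparisons. Plating density also rose on each step from day 2 to day 4, more for pNE than for aNE. In the hindbrain medium 15 of 41 regions (36.6%) were open in pNE_H and closed in aNE_H, against 28.5% of all regions, and 0 the other way, against 6.38%.

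Neighbouring genes gave a mixed picture. The antisense noncoding HAGLR, between HOXD3 and HOXD1, had 3551, 4027 and 3176 bases in peaks in aNE_T, aNE_M and aNE_H and 4758, 5756 and 5121 in pNE_T, pNE_M and pNE_H. Its window overlaps those of HOXD3 and HOXD1, so part of these bases is the same. MTX2, a mitochondrial import gene beyond the 3' end of the cluster, had 1497, 1511 and 1280 bases in the aNE-derived and 3333, 2690 and 4307 in the pNE-derived lists, also without overlap. HAGLROS and HOXD-AS2 had the same order, while EVX2 and LNPK, beyond the 5' end, had overlapping ranges. HAGLROS lies inside HAGLR, and the HOXD-AS2 window overlaps that of HOXD8, so these are not separate observations. The order was found in 7.57% of protein-coding genes. For the neighbours it was not computed with lists of one size. The hairpin of MIR10B, between HOXD8 and HOXD4, was outside peaks in all 10 lists.

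Between the windows 9 further regions lay in the cluster, and 3 of them were open in all 10 lists. The regions chr2:176145283-176145833, chr2:176179038-176179498 and chr2:176184809-176185058, were open in pNE_M and pNE_H only.

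Among the other clusters the same order was found for 5 of 11 HOXA genes, 5 of 10 HOXB genes and 1 of 9 HOXC genes. That is 11 of 30 in all, against 7.57% of protein-coding genes, with 0 in reverse, against 3.21%. With lists of one size the count was 9 of 30, against 6.64% of genes. Regions open in all pNE-derived and no aNE-derived list made up 10.0% of 50 in HOXA, 11.3% of 62 in HOXB and 1.79% of 56 in HOXC. Beside these stand 7.32% of 41 in HOXD and 2.33% of all regions. The reverse pattern was found at 1 region in HOXA, 1 in HOXB and 0 in HOXC and in HOXD, against 0.633% of all regions. Whether HOXD differs from these clusters was not tested. Among 15924 protein-coding genes outside the HOX clusters, those whose share of covered bases followed that of the HOXD windows most closely over the 10 lists were TGFB3 (Pearson r = 0.957), SPTSSA (0.948), ANXA4 (0.941), C3orf49 (0.935) and FAM221A (0.933). These values describe 10 points that share list length and are the highest of many.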

How the data were processed

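Open chromatin in 30 libraries of H1 cells was summarised by the authors as 10 deposited peak lists, 1 per population, each giving a start and an end position and no score. Per the submitters' processing notes the build was hg38 and the tools included Bowtie2, MACS2 and bedtools; their settings, and how replicates were combined, are not given in the sources used here. Any difference in threshold would move all counts.

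Peaks of chromosomes 1-22, X and Y were intersected with gene bodies from RefSeq GRCh38.p14 plus 3 kb, and merged across lists at an overlap of 1 bp. Bases in peaks and open regions were compared between aNE-derived and pNE-derived day 4 lists, by an exact two-sided permutation test for the total and by separation of ranges, beside the same share over all genes or regions. Alternatives changed the flank, list length, width, overlap, merging gap (100 bp), media and scale. The code was tested on simulated lists. The text names all members, the neighbours listed, regions that separate aNE from pNE or the day 4 origins, and the 5 genes most alike; other HOXD regions and the promoters shown were chosen after their values were seen. Members and lists were chosen with earlier results of these data known. Python 3.11.15, numpy 2.4.6, pandas 2.3.3, scipy 1.17.1 and matplotlib 3.10.9 were used.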

Additional observations from a re-analysis of the deposited data

Results flagged for a closer look

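Differences between media in bases in peaks had opposite signs in the descendants of aNE and of pNE over the HOXD windows as a whole. In the lists as deposited the same held in 13 of 18 gene contrasts, and in fewer with lists of one size, as given below. The share of all protein-coding genes with opposite signs was not computed, so whether 13 of 18 is unusual was not tested. Both contrasts of a gene share the telencephalon lists. Across all HOXD windows, midbrain minus telencephalon medium was -202 bp in the aNE-derived and 929 bp in the pNE-derived lists, and hindbrain minus telencephalon medium was -1809 bp and 3394 bp. For hindbrain minus telencephalon medium the aNE-derived and pNE-derived values were -247 and 357 bp at HOXD13, -648 and 352 bp at HOXD12, -206 and 724 bp at HOXD11, and -223 and 266 bp at HOXD10. They were -30 and 340 bp at HOXD9, -150 and 345 bp at HOXD8, and -711 and 1734 bp at HOXD3. HOXD1 had the other order, 29 and -238 bp.

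For midbrain minus telencephalon medium the 2 values were -60 and 19 bp at HOXD13, -368 and 24 bp at HOXD10, and -237 and 155 bp at HOXD9. At HOXD4 they were 388 and -896 bp and at HOXD1 545 and -209 bp, both in the other order. The other 5 gene contrasts had the same sign in both origins: midbrain minus telencephalon medium at HOXD12 (-337 and -28 bp), HOXD11 (-642 and -167 bp), HOXD8 (-170 and -395 bp) and HOXD3 (632 and 1812 bp), and hindbrain minus telencephalon medium at HOXD4 (-142 and -25 bp). These differences were not tested, since each medium and origin has 1 list, and the windows of neighbouring genes overlap.

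The pNE_H list is also the longest. With lists of one size, hindbrain minus telencephalon medium over all HOXD windows was -1281 and 1708 bp and midbrain minus telencephalon medium was -200 and 1346 bp. On that scale, for hindbrain minus telencephalon medium, HOXD11 gave 224 and 46 bp, HOXD9 112 and 207 bp and HOXD1 -14 and -231 bp. These were no longer of opposite sign. The part of list length in the other differences was not tested.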

How the results depend on the processing

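No paired analysis was possible because the replicates, whose numbers could pair, were combined into 1 list per population. Pairing the day 4 lists by medium instead, added after the data were seen, left the difference at 3816 bp (exact permutation p = 0.25). The day 2 difference in bases (254 bp) turned to -151 bp with lists of one size and to -16.79 bp per Mb of peaks, and was 1093 bp with the widest 50% of peaks. The day 4 difference (3816 bp) was 2370 bp with no flank, 2270 bp with the telencephalon and midbrain media only, and 22.95 bp per Mb of peaks (exact permutation p = 0.2); it lay between 2840 and 4537 bp when each list was left out in turn, an alternative added after the data were seen. Regions open in aNE and not pNE (4) numbered 2 with no flank, 1 in the widest 50% and 6 with lists of one size, where the HOXD4 and HOXD12 start sites were added, and those open in pNE and not aNE (1) numbered 0 with no flank, 4 in the widest 50% and 4 when peaks had to cover 50% of a region. The 3 regions open in all pNE-derived lists only became 1 in the widest 50%, a different region, and 3 to 4 when a list was left out. The reverse count (0) was 1 with lists of one size, against 1.41% of all regions. It was 1 in the widest 50%, 1 at 50% cover and 2 without the hindbrain medium. When a list was left out it was 0 to 1, 1 being without pNE_H. Shares of all regions were not computed for alternatives other than lists of one size. Shares of all genes were computed for lists of one size and per Mb of peaks, and for no other alternative. The 3 genes became 2 with no flank (HOXD8 and HOXD3) and 2 with 10 kb flanks (HOXD3 and HOXD1), 1, HOXD3, both in the widest 50% and per Mb of peaks, and 3 to 5 when a list was left out. HOXD3 was among them under every alternative run. In these runs the cause of a change was not tested. Without scores, read depth or replicate lists, weak peaks cannot be told from strong ones.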
